A study of Mus musculus with 2 samples.

Results

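The genes described here are the mouse zinc finger protein genes whose symbol is Zfp followed by a number of 700 or above and nothing else. Of 21887 protein-coding genes of the RefSeq annotation on chromosomes 1 to 19, X and Y, 127 had such a symbol, and 82 of them lay in 15 chromosome clusters of at least 3. Counts of genes in a cluster are of this set only, and the span of a cluster can hold other protein-coding genes. The choice used the symbol and no value of a gene. Open chromatin had been profiled with ATAC-seq, an assay whose transposase places sequencing adapters in accessible DNA. The cells were hematopoietic stem cells with the surface phenotype CD48-CD150+LSK from the bone marrow of wild-type C57BL/6J mice. About 1000 cells per library had been transduced either with a murine stem cell virus (MSCV) vector carrying H1C, a linker histone gene now named H1f2 (the H1C library), or with the same vector without H1C (the control library). The cells of both libraries had thus been through retroviral transduction, and the fraction that carried a vector is not given in the sources used here. With 1 library in each group there were no replicates, and no test or p-value is given.

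Most proteins of this family carry a KRAB domain at one end and an array of C2H2 zinc fingers at the other. The fingers bind particular DNA letters, often within endogenous retroviruses and other transposons, and the KRAB domain recruits TRIM28. TRIM28 brings the histone methyltransferase SETDB1 and heterochromatin proteins, which keep the bound element silent. The genes multiplied by tandem duplication, so neighbours in a cluster are often close copies, and the clusters on mouse chromosomes 2 and 4 are rodent-specific families, many of whose products bind endogenous retroviruses. A symbol does not show the domains of its protein, and protein sequences were not analysed here.

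A gene was called open in a library when a deposited accessible region lay within 1000 bp of its first or last base (a gene-end region). The H1C library had 13156 regions and the control library 32005, although the genome background solved from the lists, which is in proportion to depth, was 4.40 in H1C and 3.99 in control, a ratio of 1.10. The lists give no read totals, so the depth itself is unknown. Among 17 stem cell marker genes, Runx1 alone was open in both libraries, with 26 reads or fragments stacked at the summit in H1C and 57 in control. A further 8, including Kit, Ly6a and Slamf1, were open in control only and 8 were in neither list. Cd48, a marker excluded by the sort, had a region in control only, as did 3 of 7 myeloid, 5 of 8 lymphoid, 1 of 7 erythroid and megakaryocyte, 2 of 6 endothelial and stromal, and 2 of 4 non-hematopoietic markers. The lymphoid genes Cd3d and Cd79a were open in both. Over all protein-coding genes, 46.9% were open in control, and 29% of those were open in control only. Open gene ends therefore did not separate the stem cell markers from those of other cells, and the part of other cells in the results was not tested. In bulk cells, fewer cells with an open site and less opening per cell cannot be told apart.

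Of the 127 zinc finger genes, 41 (32.3%, exact Clopper-Pearson 95% interval 24.3 to 41.2) were open in H1C, where 33.6% of all protein-coding genes were. In the control library 73 of the 127 (57.5%, 48.4 to 66.2) were open, where 46.9% of all protein-coding genes were. The intervals cover counting error only, and amplified reads are not independent molecules. Taken over both lists, 40 genes were open in both libraries, 1 in H1C only, 33 in control only and 53 in neither. Of the 73 genes open in control, 40 (54.8%, 42.7 to 66.5) were thus also open in H1C, a proportion called the kept share below. The kept share over all protein-coding genes was 71%, and over the protein-coding genes outside this set it was 71.1% (70.2 to 72.0). Control-only genes were the remaining 45.2% of these 73, against 29% over all genes. Among genes with no control region, 1 zinc finger gene had an H1C region, and 0.542% of all such genes did.

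Genes with lower Zfp numbers were counted in the same way. Of 240 genes with a Zfp number below 700, 121 (50.4%) were open in H1C and 169 (70.4%) in control, and their kept share was 71.6% (64.2 to 78.3). Within the higher numbers, the 82 clustered genes had a kept share of 50% (25 of 50, interval 35.5 to 64.5), and the 45 scattered genes one of 65.2% (15 of 23, interval 42.7 to 83.6). These intervals overlap. At the symbol threshold, the genes just inside were Zfp703 (pileup 38 in H1C, 64 in control), Zfp704 (in neither list) and Zfp706 (57 in H1C, 89 in control). Those just outside were Zfp691 (45 in H1C, 81 in control), Zfp692 (28 in control only) and Zfp697 (in neither list), where the pileup is the number of reads or fragments stacked at the summit.

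**Figure D1:**
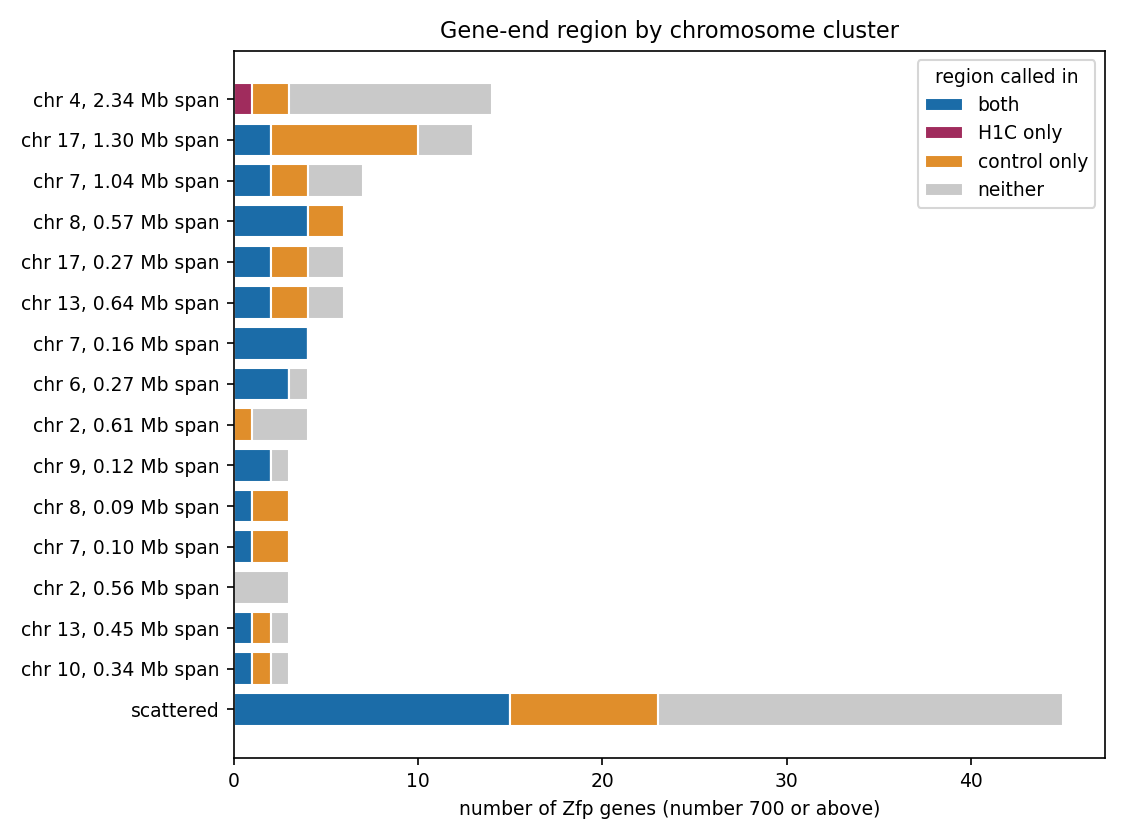
Number of Zfp genes numbered 700 or above (x axis) in each chromosome cluster and among scattered genes (y axis, with the span of each cluster), by the libraries in which a gene-end region was called. The 14 genes of the chromosome 4 cluster include none called in both, and all 4 genes of the 0.16 Mb cluster on chromosome 7 were called in both.

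The promoters of these genes were compared next, as a feature that the choice of genes did not use. RefSeq promoter entries (build GRCm38.p6, 250 bases before to 50 after the start) existed for 111 of the 127 genes. They were poorer in CpG, the dinucleotide that marks broadly active promoters, with a median of 9 per 300 bases against 13 in the promoters of other genes. They held the letters CCAAT, on either strand, in 75 of 111 (67.6%, 58.0 to 76.1), against 39.2% of all promoters. CCAAT is the core of the element bound by the NF-Y complex. At least 2 such boxes stood in 29.7% of them and in 13.4% of the promoters of other genes. The longer CCAATCA, which contains CCAAT and was searched after the sequences had been seen, stood in 39.6%, against 9.59% of all promoters. In Zfp genes numbered below 700 the share with CCAAT was 40.7%. Of the 111 promoters, 31 shared a run of 50 bases with the promoter of another gene. The shares and the interval count such copies as independent promoters, so part of the excess may repeat the same sequences.

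Other promoter motifs were searched in the same way. On either strand, the SP box GGGCGGGG stood in 17.1% of these promoters and 23.8% of all promoters, the ETS site CCGGAAGT in 4.5% and 5.28%, and TATAAA in 2.7% and 13.3%. A match is a description of the letters and not a bound site.

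The following 4 promoters, 5′ to 3′ on the strand of the gene, with CCAAT or its reverse complement ATTGG in capitals, show the range from the strongest region to none. Zfp869 (chr8:69716853-69717152, minus strand) had the strongest control region of the set and 4 boxes, 3 of them followed by CA. Zfp809 (chr9:22225453-22225752, plus strand) was open in both libraries and had 1 box. Zfp873 (chr10:82047873-82048172, plus strand) had the strongest region seen in control only, and 2 boxes. Zfp967 (chr2:176520754-176521053, plus strand) had no region in either list, and 2 boxes.
Zfp869: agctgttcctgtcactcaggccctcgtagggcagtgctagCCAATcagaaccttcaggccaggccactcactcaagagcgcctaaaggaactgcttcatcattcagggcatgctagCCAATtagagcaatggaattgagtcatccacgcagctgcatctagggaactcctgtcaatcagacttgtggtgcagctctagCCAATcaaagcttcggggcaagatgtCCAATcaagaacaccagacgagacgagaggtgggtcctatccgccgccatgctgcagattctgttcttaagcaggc
Zfp809: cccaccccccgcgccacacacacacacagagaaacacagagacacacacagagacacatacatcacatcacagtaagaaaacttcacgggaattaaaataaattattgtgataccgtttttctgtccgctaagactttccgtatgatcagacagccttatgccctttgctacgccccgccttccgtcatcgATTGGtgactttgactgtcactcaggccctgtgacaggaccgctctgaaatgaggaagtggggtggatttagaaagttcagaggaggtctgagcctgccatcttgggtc
Zfp873: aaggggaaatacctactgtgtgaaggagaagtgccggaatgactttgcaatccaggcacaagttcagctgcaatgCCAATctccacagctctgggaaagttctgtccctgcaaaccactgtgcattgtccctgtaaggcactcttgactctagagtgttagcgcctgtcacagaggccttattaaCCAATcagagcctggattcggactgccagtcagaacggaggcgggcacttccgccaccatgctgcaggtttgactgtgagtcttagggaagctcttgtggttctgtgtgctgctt
Zfp967: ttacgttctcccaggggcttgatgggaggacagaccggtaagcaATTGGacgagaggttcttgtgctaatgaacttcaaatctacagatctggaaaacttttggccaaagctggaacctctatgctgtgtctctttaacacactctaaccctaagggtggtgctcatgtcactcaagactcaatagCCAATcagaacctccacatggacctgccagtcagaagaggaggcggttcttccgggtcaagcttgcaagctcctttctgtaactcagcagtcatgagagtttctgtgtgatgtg

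The boxes thus stood in promoters of genes with and without a called gene-end region. They were in 26 of 36 (72.2%) of the genes open in both and 19 of 31 (61.3%) of those open in control only. Of the genes in neither list, 29 of 43 (67.4%) had one. Promoters are grouped here, and called open or kept, by the gene-end region of their gene, which can lie elsewhere. In 13 of the 111 genes the promoter's start lay over 1000 bp from the gene's 5′ end, and the region of Zfp771 was at its 3′ end. The CpG count did follow the states, with a median of 11.5 in genes open in both, 10 in genes open in control only and 6 in genes in neither. The corresponding medians in other genes were 23, 17 and 4. Zinc finger promoters with 5 to 9 CpG were open in control in 26 of 43 cases (60.5%, 44.4 to 75), against 29.4% of other promoters with as many. The shares open in control were 14.3% against 8.85% at 0 to 4 CpG, 76.2% against 56.4% at 10 to 14, 55.6% against 71.2% at 15 to 19 and 75% against 75.9% at 20 or more. The kept share of zinc finger promoters was 50% (13 of 26) at 5 to 9 CpG, against 49.1% of other promoters, and 68.8% (11 of 16) at 10 to 14, against 64.3%. It was 40% (2 of 5) at 15 to 19, against 74.1%, and 55.6% (10 of 18, interval 30.8 to 78.5) at 20 or more, against 80.3%. At 0 to 4 CpG neither of the 2 open zinc finger promoters was kept, against 40.2% of other promoters.

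**Figure D2:**
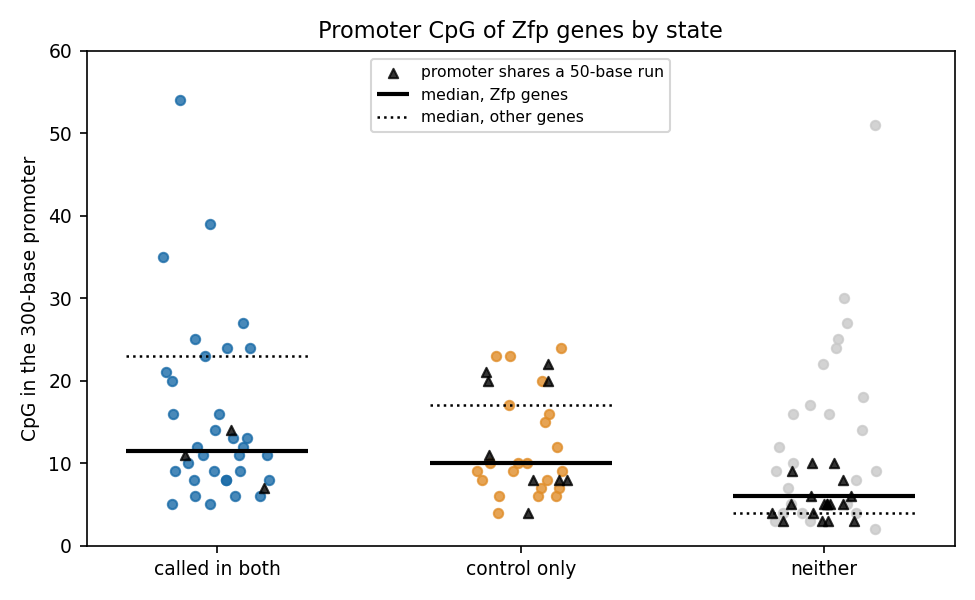
CpG dinucleotides in the 300-base promoter (y axis) of each Zfp gene numbered 700 or above, by the libraries in which its gene-end region was called (x axis); bars are medians of these genes, dotted lines medians of other genes, and black triangles mark promoters that share a 50-base run with another gene's promoter. The medians are 11.5, 10 and 6 in the zinc finger genes, and the triangles number 3, 9 and 18; the single gene called in H1C only is not drawn.

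Copies were frequent. A run of 50 bases was shared with the promoter of another gene in 31 of 111 promoters (27.9%), against 9.76% of other promoters. The share with such a copy was 8.33% (3 of 36) in genes open in both, 29% (9 of 31) in genes open in control only and 41.9% (18 of 43) in genes in neither list. Whether reads that map to several copies were kept is not given in the sources used here, so a copy that is closed and a copy whose reads were discarded cannot be told apart. Without the genes that have such a promoter, 37 of the remaining 61 genes open in control (60.7%, 47.3 to 72.9) were also open in H1C, against 71.4% of other genes treated alike. With genes that have no promoter entry left out as well, the shares were 60% (33 of 55) and 73%. The next 2 promoters, on chromosome 2, show how near the copies are and what differs between one that was called and one that was not. Zfp971 (chr2:178023034-178023333, plus strand) had a control region with a pileup of 27 and no H1C region, and Zfp965 (chr2:175469775-175470074, plus strand) had none in either list. Their promoters were identical at 291 of 300 positions (97%), and the 9 that differ are in capitals.
Zfp971: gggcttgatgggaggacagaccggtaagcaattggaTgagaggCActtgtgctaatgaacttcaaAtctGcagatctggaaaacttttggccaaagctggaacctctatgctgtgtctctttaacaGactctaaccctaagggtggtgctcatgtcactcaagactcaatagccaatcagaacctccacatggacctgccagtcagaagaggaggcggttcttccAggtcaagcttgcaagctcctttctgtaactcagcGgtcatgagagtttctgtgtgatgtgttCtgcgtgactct
Zfp965: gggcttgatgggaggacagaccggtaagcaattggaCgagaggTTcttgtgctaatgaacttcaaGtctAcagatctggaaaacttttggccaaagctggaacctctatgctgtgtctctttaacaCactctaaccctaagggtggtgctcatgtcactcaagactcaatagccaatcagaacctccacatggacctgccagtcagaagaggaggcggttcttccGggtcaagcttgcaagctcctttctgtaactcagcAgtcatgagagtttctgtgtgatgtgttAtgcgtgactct

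Zfp966 and Zfp967, also on chromosome 2 and both in neither list, had identical promoters over all 300 bases. Zfp968 and Zfp973 differed at 1 base, and neither had a region.

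Most regions at these genes marked a promoter. Of the 67 genes with a control region and a known strand, 65 (97%) had it at the 5′ end, against 94.1% in other genes. The exceptions were Zfp710 and Zfp771, at the 3′ end. Few were shared with a neighbour: the region lay also at the end of another protein-coding gene in 8 of 73 (11%), against 28.7% of other genes. Regions were narrow, and Zfp788 alone had one over 1 kb. In H1C 2 regions, 240 and 550 bp wide, overlapped this control region of 1149 bp.

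The deposited columns describe the strength of each region within its own list. For the 40 genes open in both, the fold (summit pileup over local background, with 1 added to each) ranged from 3.15 to 9.12 in H1C with a median of 5.23, and from 4.52 to 11.1 in control with a median of 7.77. The −log10 p had a median of 15.9 in H1C (range 5.40 to 46.3) and 31.6 in control (11.6 to 74.8), and the −log10 q medians were 12.3 in H1C and 28.0 in control. The summit lay a median of 166 bp from the start of the region in H1C and 265.5 bp in control. Regions were 343 bp wide in H1C at the median (200 to 922) and 558.5 bp in control (233 to 1149). With the strongest region taken at each gene, the H1C region was the narrower in 35 of 40 genes (87.5%), against 91.1% of other genes open in both. The summits lay within 100 bp of each other in 33 of 40.

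The 33 genes open in control only had weaker regions, with a median fold of 4.61 (2.81 to 8.51), a median −log10 p of 11.2 (4.13 to 31.6), a median −log10 q of 8.32 and a median width of 444 bp (208 to 883). Their summit lay a median of 161 bp from the start of the region. Their pileup had a median of 24, against 50.5 in the control regions of the genes open in both. A pileup of 30 or less was found in 26 of these 33 genes and in 6 of the 40. No H1C region outside the 1000 bp window overlapped any of the 33.

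Because weak control regions were called in H1C less often than strong ones, genes were set side by side within bins of the control −log10 p. Control regions of the zinc finger genes were weaker than those of other genes: 32.9% lay in the lowest bin (3.62 to 13.5), against 19.7% of other genes. In that bin 2 of 24 zinc finger genes (8.33%, 1.03 to 27.0) were also open in H1C, against 17.4% of other genes. The kept shares were 42.9% (6 of 14) against 53.8% from 13.5 to 22.2, and 81.2% (13 of 16) against 87.5% from 22.2 to 32.8. From 32.8 to 45.9 all 10 zinc finger genes were kept, against 96.6% of other genes. From 45.9 to 114 all 9 were kept, against 99.6%. In each of these bins the interval of the zinc finger genes holds the share of other genes. With other genes re-weighted to the bins of the zinc finger genes, their kept share became 60.7%, which corresponds to 44.3 genes where 40 were observed. Zfp genes numbered below 700 were kept in 31.4% in the lowest bin (11 of 35), and re-weighted alike they came to 65.7%, or 47.9 genes, a difference of -10.9 percentage points. Against other genes the difference was -5.93 percentage points at matched strength and -16.3 points before matching. It was -1.44 points in bins of pileup and -12.5 points in bins of fold.

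**Figure D3:**
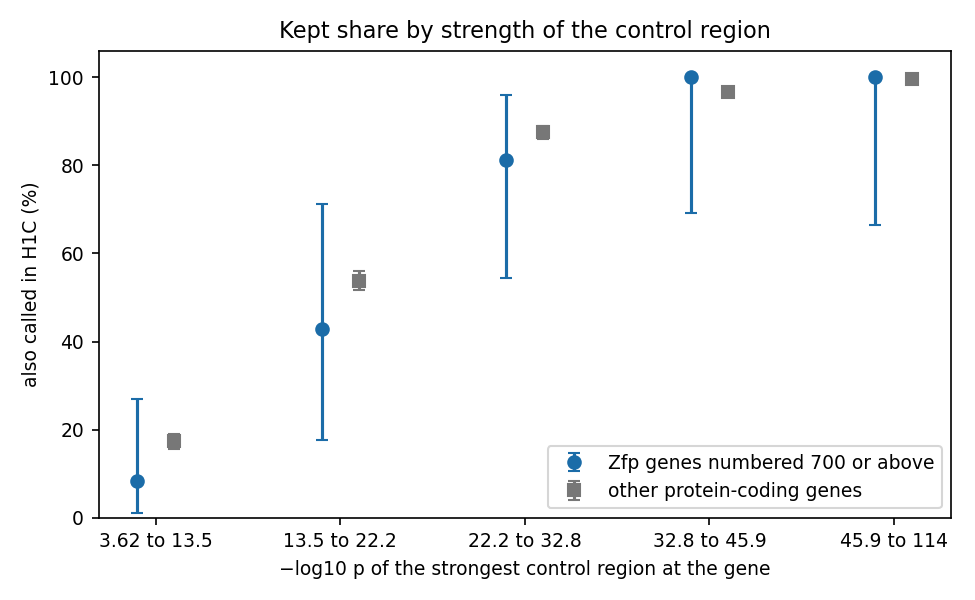
Percentage of the genes called in control that were also called in H1C (y axis) in 5 bins of the −log10 p of the strongest control region at the gene (x axis); circles are Zfp genes numbered 700 or above, squares are other protein-coding genes, and bars are exact Clopper-Pearson 95% intervals. The zinc finger genes go up with strength, 8.33% in the lowest bin and 100% in the highest, as do other genes at 17.4% and 99.6%.

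At the 40 genes open in both, the H1C pileup had a median of 32 (16 to 71) and the control pileup one of 50.5 (27 to 105). After division by the background ratio, the log2 ratio of H1C to control pileup was below 0 in all 40 (34 of 40 with the other depth ratio given below), with a median of -0.83 and a range of -1.46 to -0.09. Its exact conditional binomial 95% interval, which covers counting error only, lay below 0 in 28 of 40 (70%). In other genes open in both, the median was -0.85, 99.3% of ratios were below 0 and 76.6% of intervals excluded 0. These values rest on the depth ratio of 1.10. With the ratio of 0.869 from local backgrounds at shared summits, every log2 ratio is 0.34 higher, the median is -0.48 and 11 of the 40 intervals lie below 0. The ratios of Zfp938, Zfp740, Zfp994, Zfp871, Zfp958 and Zfp949 are then above 0, at 0.05 to 0.25. The ratios cover only genes called in both libraries, so low H1C pileups that missed the threshold are absent. The ratio was lower where the control pileup was higher: at control pileups of 20 to below 40 the median was -0.37 in 8 zinc finger genes and -0.59 in other genes. At 40 to below 60 it was -0.79 (17 genes) and -0.85, and at 60 or more it was -0.98 (15 genes) and -0.91.

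**Figure D4:**
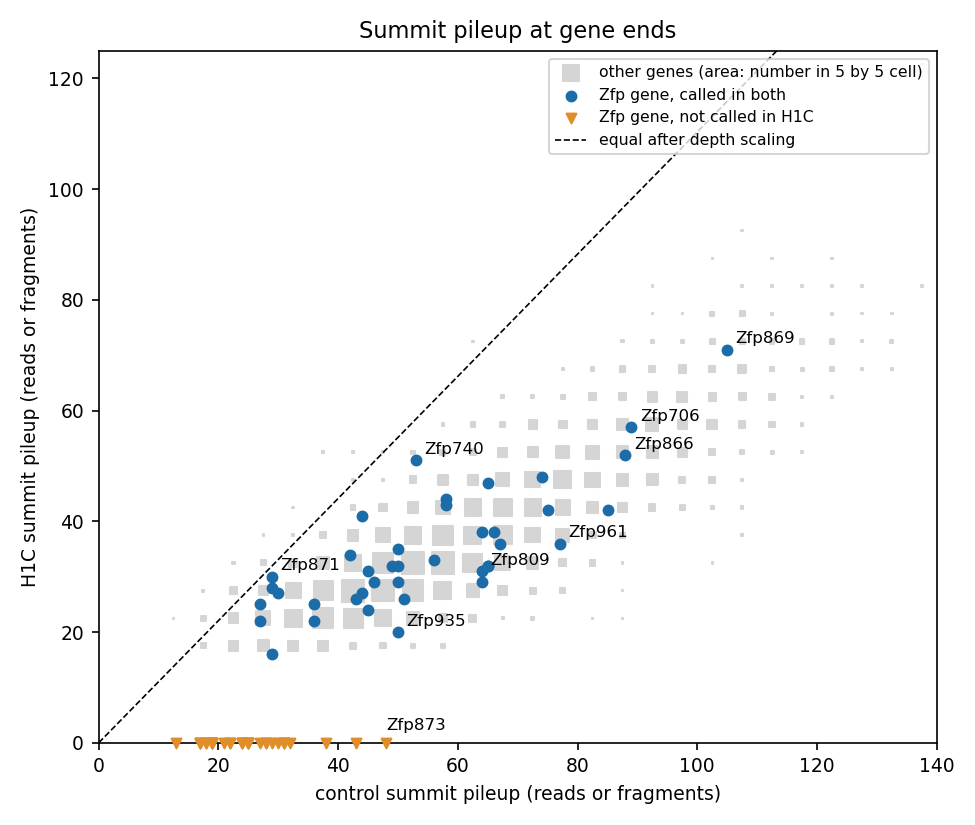
Summit pileup in H1C (y axis) against that in control (x axis) at gene ends; circles are the 40 Zfp genes numbered 700 or above called in both libraries, grey squares are other genes (area in proportion to number) and the dashed line marks equality after depth scaling. All 40 circles lie below the line, which uses the depth ratio of 1.10 (34 of 40 would with 0.869); triangles drawn on the x axis are the 33 genes with no H1C region, whose H1C pileup is not known to be 0.

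The highest pileup of the set in either library lay on chromosome 8. Zfp869 (chr8:69705137-69717068) had a pileup of 71 in H1C and 105 in control, a log2 ratio of -0.71 (interval -1.16 to -0.26). In the same cluster, Zfp866 (chr8:69761324-69774911) had 52 in H1C and 88 in control (log2 ratio -0.90, interval -1.42 to -0.39). Their cluster spans 0.57 Mb, and 4 of its 6 genes were open in both libraries. Zfp868 had 48 in H1C and 74 in control (log2 ratio -0.77). Zfp963 had 33 in H1C and 56 in control (log2 ratio -0.90). Zfp930 (pileup 43) and Zfp964 (31) were open in control only. Each of these 6 genes had a control region, and the control pileups of 31 to 105 include the highest of the set. The span held 10 protein-coding genes in all.

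A second small cluster on chromosome 8, of 3 genes, held Zfp961, a protein reported to bind the lysine tRNA primer binding site of mouse retroelements. Its region (chr8:71950875-71951210 in H1C, chr8:71950795-71951247 in control) had a pileup of 36 in H1C and 77 in control, with a log2 ratio of -1.24 (-1.85 to -0.65), among the 3 lowest. The other genes of the cluster, Zfp882 (pileup 31) and Zfp709 (25), were open in control only.

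Zfp809, on chromosome 9, encodes the protein that recruits TRIM28 to the proline tRNA primer binding site of murine leukemia viruses in embryonic cells. Its region had a pileup of 31 in H1C and 64 in control, with a log2 ratio of -1.19 (-1.86 to -0.55). Zfp810, in the same cluster, had 32 in H1C and 65 in control (log2 ratio -1.16). Zfp872, the third gene of the cluster, was in neither list. The open pair and the neighbour without a region lay within 0.12 Mb.

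On chromosome 6, Zfp746, which encodes PARIS, a repressor of the gene for the coactivator PGC-1 alpha, had a pileup of 32 in H1C and 49 in control (log2 ratio -0.76). In the same cluster, Zfp956 (29 in H1C, 64 in control, log2 ratio -1.28) and Zfp786 (43 in H1C, 58 in control, log2 ratio -0.57) were also open in both. Zfp777, which lies between Zfp956 and Zfp746, was in neither list. All 4 genes of the 0.16 Mb cluster on chromosome 7 were open in both. There Zfp771 had 47 in H1C and 65 in control, and Zfp768 had 34 in H1C and 42 in control. Zfp747 had 31 in H1C and 45 in control, and Zfp764 had 22 in H1C and 27 in control. Their log2 ratios ran from -0.68 to -0.44. This was the cluster with the most regions for its length, 61.0 per Mb in H1C and 104 per Mb in control. Its span held 9 protein-coding genes, and regions were counted whether or not they lay at the 4.

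The lowest ratio of the set was at Zfp935 on chromosome 13 (chr13:62453016-62466852), with a pileup of 20 in H1C and 50 in control and a log2 ratio of -1.46 (-2.29 to -0.69). Its cluster also held Zfp808, open in control only (pileup 22), and Zfp934, in neither list. A second cluster on chromosome 13 held Zfp712 (26 in H1C, 43 in control) and Zfp738 (22 in H1C, 36 in control), both near the median ratio of the set. Zfp953 (17) and Zfp748 (25) were open there in control only. Zfp708, whose protein binds RMER19B retroelements and keeps them methylated, was in neither list, as was Zfp759.

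Chromosome 17 carried 2 clusters. In the larger one, 13 genes over 1.30 Mb, 8 were open in control only: Zfp948, Zfp760, Zfp942, Zfp943, Zfp947, Zfp944, Zfp758 and Zfp945, all with pileups of 19 to 24. All 8 lay in the lowest bin of control −log10 p (3.62 to 13.5), where 17.4% of other genes open in control were also open in H1C. Zfp942 and Zfp943 shared 1 region that covered both of their starts (pileup 24), as did Zfp944 and Zfp758 (pileup 19), so these 4 genes rest on 2 regions. The 4 promoters shared 70.1 to 82.1% of their 50-base runs with promoters of other genes. Zfp983 had 32 in H1C and 65 in control (log2 ratio -1.16, interval -1.82 to -0.53), and Zfp994 had 28 in H1C and 29 in control (log2 ratio -0.19, interval -1.0 to 0.61). Zfp820, Zfp995 and Zfp946 were in neither list.

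The smaller chromosome 17 cluster, of 6 genes over 0.27 Mb, held the ratio nearest to 0. Zfp871 (chr17:32765496-32788287) had a pileup of 30 in H1C and 29 in control, with a log2 ratio of -0.09 (-0.88 to 0.69). Zfp870 had 25 in H1C and 36 in control (log2 ratio -0.67). Zfp799 (pileup 38) and Zfp763 (30) were open in control only, and Zfp811 and Zfp952 were in neither list. A control-only gene in this cluster thus had a higher control pileup than a gene that was kept.

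The strongest control-only region of the set was at Zfp873 on chromosome 10 (chr10:82048084-82077727), with a pileup of 48 and a fold of 8.51 in control. In the same cluster, Zfp938 was open in both with 27 in H1C and 30 in control (log2 ratio -0.29, interval -1.10 to 0.51), and Zfp781 was in neither list. In the 2 remaining clusters of chromosome 7, Zfp715 (29 in H1C, 46 in control), Zfp719 (44 in H1C, 58 in control) and Zfp954 (24 in H1C, 45 in control) were open in both. Zfp975 (28), Zfp819 (17), Zfp773 (19) and Zfp772 (29) were open in control only, and Zfp977, Zfp976 and Zfp936 were in neither list.

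The chromosome 2 genes mostly had no region in either list. Of 7 genes in 2 clusters, Zfp971 alone had a region, in control (pileup 27). Zfp968, Zfp965, Zfp966, Zfp970, Zfp972 and Zfp931 were in neither list. With genes chained up to 1000 kb apart in place of 500 kb, these clusters joined to 10 genes, of which 9 were in neither list. Of their 7 promoters, 6 shared a 50-base run with that of another gene.

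The largest cluster, 14 genes over 2.34 Mb of chromosome 4 (chr4:145510759-147849126), was the one with an H1C-only gene. Zfp985 had a 248 bp region at its 3′ end in H1C (chr4:147585910-147586157), with a pileup of 23 and a fold of 4.33. The nearest control region began outside the 1000 bp window, 1754 bp away, with a pileup of 21. Zfp982 (pileup 17) and Zfp933 (18) were open in control only. The other 11 were in neither list: Zfp990, Zfp980, Zfp987, Zfp992, Zfp981, Zfp993, Zfp978, Zfp991, Zfp988, Zfp979 and Zfp984.

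All regions between the ends of that cluster were then counted, a step added after its values had been seen. It held 19 H1C and 26 control regions, most of them away from gene ends. An H1C region overlapped 10 of the 26 control regions (38.5%, 20.2 to 59.4), and 9 of the 19 H1C regions (47.4%, 24.4 to 71.1) had no control partner. Over the genome, 15% of 13012 H1C regions had none, and 16.8% of those in the same range of H1C pileups. Their control pileups were 15 to 33, a range in which 12.9% of 19580 control regions of the genome were overlapped. The log2 ratio of H1C to control pileup at the 10 had a median of -0.005 and a range of -0.45 to 0.44, and no interval excluded 0. Over the shared regions of the genome in the same pileup range the median was -0.28, with quartiles of -0.51 and -0.05. The local background at the summits of this cluster had a median of 1.09 times the genome background in H1C and 1.17 times in control. It reached 16.7 in H1C (3.78 times) and 11.6 in control (2.90 times). At genes outside the set it reached 21.2 in H1C, among those open in both, and 23.5 in control. The part of the cluster's local background in these values was not tested.

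**Figure D5:**
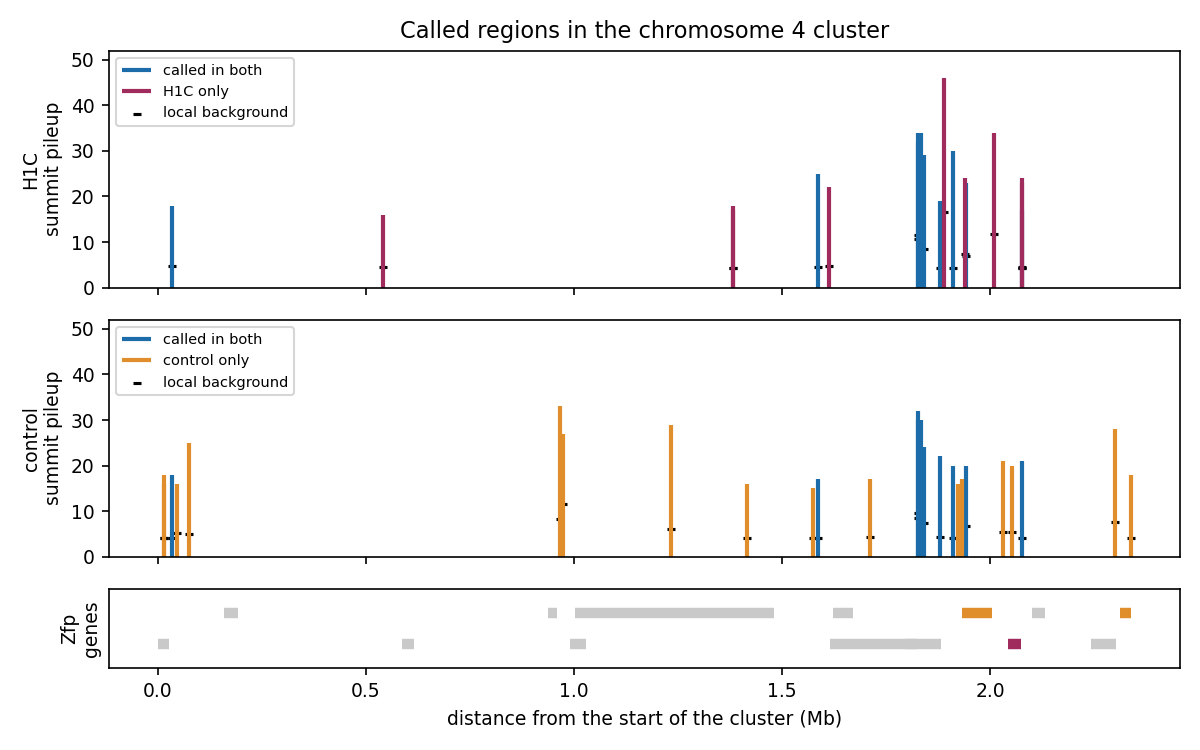
Summit pileup of every called region (y axis) along the chromosome 4 cluster (x axis, Mb from its start) in H1C (top) and control (middle), with the local background as black dashes, and the 14 Zfp genes (bottom), grey where no gene-end region was called, purple for H1C only and orange for control only. The 9 regions called in H1C only reach a pileup of 46, where the local background is 16.7.

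Across all 15 clusters, 8.86 Mb in all, there were 8.13 regions per Mb in H1C and 16.7 per Mb in control, against 4.84 per Mb in H1C and 11.8 per Mb in control over the genome from the first to the last gene of each chromosome. These counts take in every region in the spans, also those at genes outside the set. A chromosome 7 span with 7 genes of the set, for example, held 27 protein-coding genes. The spans were not matched to the genome for gene density. The pooled value hides a wide spread. In control, 6 clusters with 5.6 of the 8.86 Mb lay below the genome value, at 0 to 11.1 regions per Mb, and the other 9 had 14.1 to 104 per Mb. In 3 of the 6 (21 genes on chromosomes 2 and 4) no gene was open in both libraries, and these held 5.41 regions per Mb in H1C and 8.54 per Mb in control.

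Among the 45 scattered genes, 15 were open in both, 8 in control only and 22 in neither. Zfp706, a small protein that lowers Klf4 transcription when mouse embryonic stem cells leave self-renewal, had a pileup of 57 in H1C and 89 in control (log2 ratio -0.78, interval -1.29 to -0.29). Zfp830, needed for division of early embryonic cells, had 38 in H1C and 66 in control (log2 ratio -0.94), in a region that it shares with the start of Cct6b, a chaperonin subunit gene. Zfp703, a transcriptional repressor whose human counterpart is amplified in luminal breast cancers, had 38 in H1C and 64 in control (log2 ratio -0.89). Each of these ratios lay within the quartiles of the set, -1.01 and -0.60.

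Zfp740 had 51 in H1C and 53 in control (log2 ratio -0.20, interval -0.78 to 0.38), and its promoter had 54 CpG, the highest of the set. Zfp949 had the weakest control fold among genes open in both (4.52), with 25 in H1C and 27 in control. Its strongest H1C and control regions did not overlap, so its log2 ratio of -0.25 compares different sites. The remaining scattered genes open in both were Zfp867, Zfp825, Zfp959, Zfp950, Zfp775, Zfp865, Zfp784, Zfp788, Zfp958 and Zfp846, with H1C pileups of 16 to 42 and control pileups of 29 to 85.

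Zfp932, whose protein represses endogenous retroviruses, was open in control only (pileup 31, fold 6.41), as was Zfp707 (32, fold 6.55). Zfp827, the mouse counterpart of a human protein that binds telomeres and the NuRD complex, had a pileup of 25 in control only. Zfp951 had the weakest region of the set (pileup 13, fold 2.81). Zfp850 (18), Zfp940 (22), Zfp939 (25) and Zfp710 (28) completed the control-only group. Among those in neither list were Zfp711, an X-linked factor that binds promoters with the demethylase PHF8, and Zfp750, a factor of epidermal differentiation. The others were Zfp879, Zfp735, Zfp996, Zfp839, Zfp957, Zfp960, Zfp770, Zfp937, Zfp831, Zfp967, Zfp973, Zfp704, Zfp853, Zfp800, Zfp787, Zfp974, Zfp790, Zfp941, Zfp791 and Zfp821.

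The genes whose products act with KRAB zinc finger proteins were listed as a comparison. Of 29 genes of the TRIM28 silencing pathway, 21 were open in both libraries, 2 in control only and 6 in neither, with a median log2 ratio of -0.74. Their kept share was 91.3% (21 of 23), against 71% over all genes and 83.8% over genes outside the list re-weighted to its bins of control −log10 p, which corresponds to 19.3 of 23. Trim28 had a pileup of 23 in H1C and 54 in control (log2 ratio -1.37, interval -2.14 to -0.64), the lowest ratio of the list. Setdb1 had 25 in H1C and 35 in control (log2 ratio -0.63, interval -1.43 to 0.15). The heterochromatin protein genes Cbx1, Cbx3 and Cbx5 had ratios of -0.67, -0.84 and -0.94.

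The genes of the HUSH complex and its partner Morc2a divided. Mphosph8 had 46 in H1C and 82 in control (log2 ratio -0.98), and Pphln1 had 26 in H1C and 34 in control (log2 ratio -0.53). Morc2a had 43 in H1C and 73 in control (log2 ratio -0.91), and Tasor was in neither list. Dnmt3b, a de novo DNA methyltransferase gene (pileup 19), and Atrx, a chromatin remodeller gene (38), were open in control only. Chd3, Dnmt1, Dnmt3a, Ehmt2 and Hells were in neither list.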

How the data were processed

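ATAC-seq was read from 1 deposited list of accessible regions per library, so regions had been called per sample. The build was mm10, and Bowtie2 2.2.9, MACS2, featureCounts, Picard and Trim Galore 0.4.4 had been used, per the submitters' processing notes. Their roles, settings, the treatment of duplicates, of reads mapping to several places and of the transposase offset are not given in the sources used here. Duplicates and unshifted reads would change pileups and summit positions, and discarded multi-mapping reads would lower pileups at gene copies. The deposited fold is a ratio of summit pileup to local background, each with 1 added. The −log10 p and −log10 q values were deposited by the authors, and the deposited score was not used further. The summit offset was taken as deposited. The lowest −log10 q was 1.34 in H1C and 1.31 in control.

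Pileup and local background were solved from fold and Poisson −log10 p. The pileup came out whole (tolerance 0.0001) for 13156 of 13156 H1C and 32005 of 32005 control regions. The lowest local background of a list served as its genome background. Pileup ratios were divided by the ratio of these (1.10) before the log2 was taken. Where a gene end had several regions, the one with the highest −log10 p was used. Gene positions came from a RefSeq table of GRCm38.p6, and sequences from its promoter table. Genes of the set up to 500 kb apart were chained into clusters of at least 3, whatever other genes lay between them. The planned counts of zinc fingers and KRAB domains were not made, since proteins were not analysed here. The solver, the assignment of regions to gene ends and the interval of the pileup ratio were tested on simulated data. The re-weighting was not.

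The precision of each value is limited by 1 library per group and pileups of 13 to 105 at these genes. Shares have exact Clopper-Pearson and ratios exact conditional binomial 95% intervals. No comparison was tested. The rule for named genes took the gene open in H1C only, the 8 genes of highest control fold open in both and in control only, the 3 highest and 3 lowest ratios, the lowest fold of each state, and genes of known role, and all other genes were named by state. One gene of the planned TRIM28 list is not reported here. The genes, lists and rules were chosen with earlier results of these data known. The software was scipy 1.17.1, pandas 2.3.3, numpy 2.4.6, matplotlib 3.10.9 and Python 3.11.15.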

Additional observations from a re-analysis of the deposited data

How the results depend on the processing

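No paired analysis was possible because there was 1 library per group, which also leaves every result without a replicate check. Over 59 alternatives for 7 results, 0 reversed direction and 3 moved further than the limits set. These alternatives covered windows, thresholds, overlap rules, gene ends, bins, chaining distances and backgrounds. The limits were 1.5 times for counts, the interval of the kept share (also laid around its differences) and the quartiles of the log2 ratio. Only the kept-share differences and the log2 ratio could reverse, since counts and the kept share itself have no direction. The alternatives with any RefSeq start site, without copied promoters (with or without genes that lack a promoter entry) and with CpG bins were chosen after seeing the data. The kept share of 54.8% became 41.1% when regions had to overlap by 50% of each, and 77.6% with lists of equal length. The median log2 ratio of -0.83 became -0.48 with the depth ratio taken from local backgrounds at shared summits, which include reads of the region itself. The kept-share difference at matched strength ranged from -1.44 percentage points (bins of pileup) to -12.5 (bins of fold), and that before matching from -6.59 to -20.4, so its size depends on the measure of strength. Pileups under about 30 in control were rarely called in H1C, which limits what can be said of the weak regions.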
